A study of Homo sapiens with 3 samples.

Results

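C-to-U editing by the RBFOX2-APOBEC1 fusion was examined in the transcripts of histone genes. These were chosen by gene name, with earlier results of these data already known. A gene belonged to the set when the symbol printed first with a cluster began with HIST or named a histone variant (H2AFJ, H2AFV, H2AFX, H2AFY, H2AFZ, H3F3A, H3F3B, H3F3C, H1F0, H1FX), and symbols of pseudogenes were left out. By this rule 33, 36 and 31 clusters of replicates 1, 2 and 3 lay in histone genes, out of 14295, 15181 and 11367 clusters in all. These 100 clusters belonged to 15 of 9109 gene names. A cluster is a stretch of adjoining windows of 30 bases in which the FLARE pipeline found more edited C bases than its background model allows, and its edit fraction is the share of covered C bases that were edited. The 3 samples are replicates of 1 condition. They are HEK293T cells, a line of transformed human embryonic kidney cells (the labels give the Lenti-X derivative, HEK293XT, and a WT genotype), in which doxycycline induced APOBEC1 fused to RBFOX2 for 72 h. The labels name transient transfection as the treatment, whereas the growth protocol speaks of stable lines, and no sample lacking the fusion was analysed. All values therefore describe editing in cells that carry the fusion, and differences are drawn between genes, between classes of genes and between histone genes and the rest.

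Histones are the proteins around which DNA is wound, with H2A, H2B, H3 and H4 in the core of the nucleosome and H1 on the linker DNA. Most are encoded by the replication-dependent genes, named HIST in the annotation used here, which sit in dense genomic groups, typically lack introns and are expressed in S phase. Their mRNAs usually end in a conserved stem-loop bound by SLBP rather than in a poly(A) tail, although some of them are also made as polyadenylated forms. The annotation nonetheless gives several exons to HIST1H2BD, HIST2H4A and HIST2H4B, which had clusters in exons numbered 2, 3 or 4. Variant histones such as H3.3, H2A.Z, macroH2A and H1.0 are made throughout the cell cycle from scattered genes with ordinary polyadenylated mRNAs, and H2AFX mRNA can carry either kind of end. The labels give polyA RNA as the molecule and name both an mRNA and a total RNA kit. RBFOX2 is a nuclear splicing regulator that recognises GCAUG in RNA.

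The deposited counts cover reads inside clusters only, 1637592, 1731304 and 1104249 in replicates 1, 2 and 3, of which 9546, 11273 and 6553 fell in histone clusters. A cluster is listed only where editing passed the pipeline's filter, so a gene without a cluster may be unexpressed, shallowly covered or unedited, and these cannot be told apart. For the same reason clusters say little on cell identity. Of 6 genes taken as marks of this cell line, NEFM and INA had clusters in all 3 replicates, VIM in 1, and KRT8, KRT18 and PAX2 in none. Wilson 95% intervals given for a replicate's edit fraction cover counting error only, because amplified reads that carry no molecular identifier may copy the same molecule, and several edited bases can lie on the same read.

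Editing was recorded mainly in the variant genes. All 7 variant genes of the set, H3F3A, H3F3B, H2AFV, H2AFX, H2AFY, H2AFZ and H1F0, are current protein-coding genes, and RefSeq holds 11 genes whose present or older symbol meets the rule for variants. Among the HIST genes 8 had a cluster in any replicate, out of 71 in RefSeq. The share of all RefSeq genes with a cluster was not taken, so neither count can be called high or low. The variant genes held 27, 25 and 23 clusters in replicates 1, 2 and 3, and the HIST genes 6, 11 and 8. As a share of all edited bases of the replicate, the variant genes had 0.470%, 0.530% and 0.467%, against 0.0849%, 0.0851% and 0.0493% in the HIST genes. The ranges of the classes do not overlap in either measure. Covered C bases also lay mainly in the variant genes. Of those in all clusters, the variant genes had 0.584%, 0.789% and 0.583% in replicates 1, 2 and 3. The HIST genes had 0.0768%, 0.0696% and 0.0391%. In each replicate the share of edited bases was below that of covered C bases in variant genes and above it in HIST genes. H3F3B and H1F0 alone held 42 of the 100 clusters, 22 in H3F3B and 20 in H1F0, and 37.2% ± 7.63 and 27.8% ± 10.2 (SD, n = 3) of the edited bases of all histone clusters. Of the 15 genes, 8 had a cluster in each replicate, or 53.3%, which were 6 variant genes together with HIST1H2BK and HIST2H4B. Over all 9109 gene names the share was 38.3%. Of the other 7 members, H2AFX, HIST1H2BD and HIST2H4A had clusters in 2 replicates, and HIST1H2AG, HIST1H2AI, HIST1H3E and HIST2H2BE in replicate 2 alone.

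**Figure D1:**
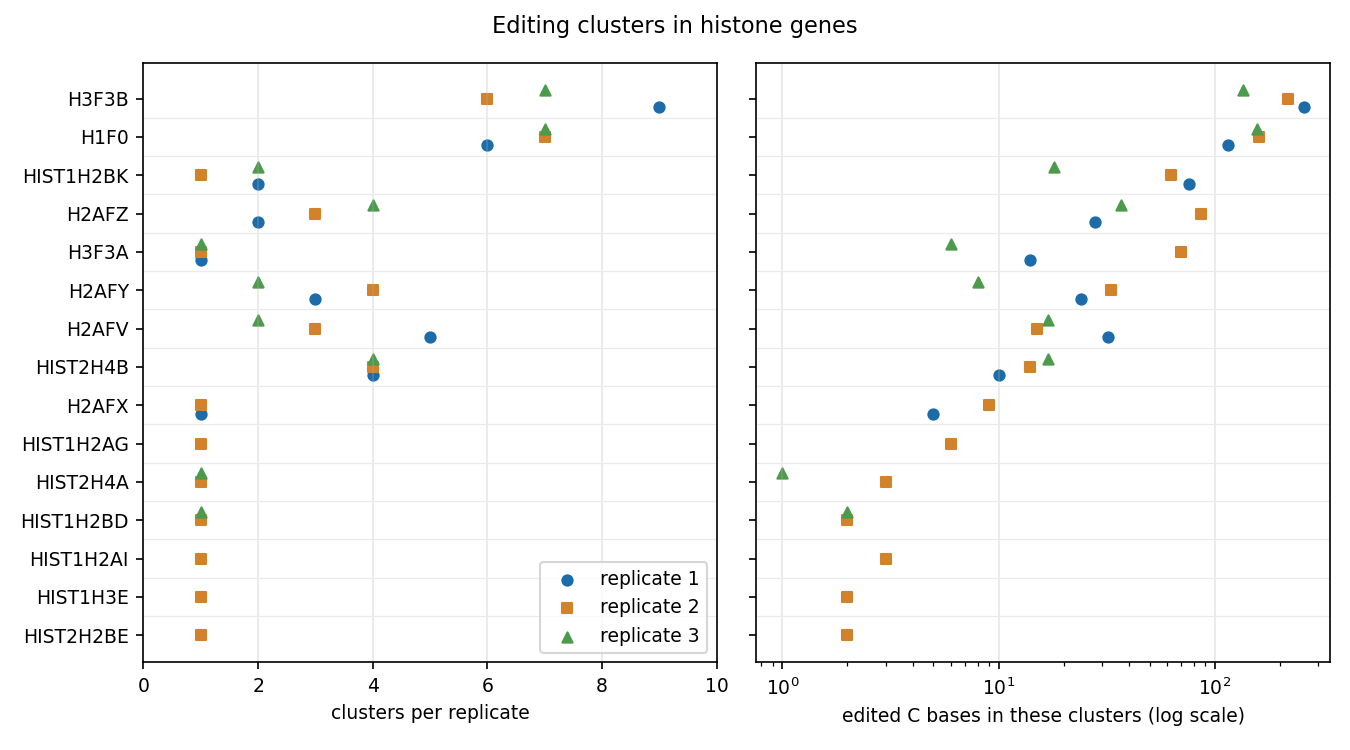
Number of clusters (left, linear axis) and edited C bases in them (right, log axis) for each of the 15 histone genes, with a point for each replicate in which the gene had a cluster. H3F3B and H1F0 stand at the top with 6 to 9 clusters a replicate, and HIST1H2AG, HIST1H2AI, HIST1H3E and HIST2H2BE have a point for replicate 2 alone.

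H3F3B, which encodes the replacement histone H3.3, had the most clusters. Replicates 1, 2 and 3 held 9, 6 and 7, with 258, 218 and 135 edited bases among 35802, 23606 and 18841 covered C bases. The pooled edit fraction, which is edited over covered C bases summed over the gene's clusters, was 0.721%, 0.923% and 0.717%, with Wilson intervals from 0.638% to 0.814%, 0.809% to 1.05% and 0.606% to 0.847%. Replicate 2 was the highest, and its interval overlapped those of the other two. All clusters were exonic and occupied chromosome 17, minus strand, from 73772681 to 73774645 (positions as deposited; hg19 is the build in the submitters' processing notes), a span of 1965 bases. Merged over replicates they formed 9 loci, of which 3 were present in all replicates. The broadest ran from 73774316 to 73774645 and had an edit fraction of 1.13%, 0.952% and 0.770%, from 161, 156 and 83 edited bases. It was also the most 5′ locus of the gene, and 240 of its 330 bases lay in a cluster of every replicate. The locus from 73773566 to 73773790 had 0.422%, 0.919% and 0.533%, and that from 73774151 to 73774270 had 0.434%, 0.708% and 0.4995%. The broadest locus exceeded both in each of the 3 replicates.

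H3F3A, the other gene for the same H3.3 protein, had 1 cluster per replicate, and its values were the least alike of the genes found in all replicates. The edit fraction was 2.20% in replicate 1, 0.308% in replicate 2 and 1.89% in replicate 3, with Wilson intervals of 1.32% to 3.66%, 0.244% to 0.389% and 0.868% to 4.05%. Replicate 2 stands apart from the other replicates, beyond counting error. Its cluster was also longer and deeper. It covered 165 bases of the plus strand of chromosome 1, from 226259113 to 226259277, at a mean read depth of 544 and with 22742 covered C bases. Replicates 1 and 3 had clusters of 60 and 45 bases with the same end, at depths of 92.1 and 34.2 and with 636 and 318 covered C bases. The low fraction thus comes with a stretch that was not in a cluster of the other replicates, and 45 bases were common to all. Reads of H3F3A can also be placed on its processed copies, which the rule leaves out. Clusters named for H3F3AP4 on chromosome 2 held 176, 147 and 126 edited bases in replicates 1, 2 and 3, against 14, 70 and 6 in H3F3A. The split of reads between the gene and this copy was not tested, and the H3F3A values are uncertain on that account.

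H1F0 encodes the linker histone H1.0, known for accumulating in cells that leave the cycle, and was the most evenly edited gene with many clusters. It had 6, 7 and 7 clusters in replicates 1, 2 and 3, with 115, 161 and 157 edited bases among 13196, 15987 and 17059 covered C bases. The pooled edit fraction was 0.871%, 1.01% and 0.920%, a mean of 0.933% ± 0.0687 (SD, n = 3), and the Wilson intervals of the replicates overlapped. The clusters lay on the plus strand of chromosome 22 between 38202135 and 38203349. They formed 6 loci, of which 4 were in all replicates and the other two in 2, so no locus of H1F0 was in a single replicate. In all replicates the locus from 38202960 to 38203094 had the same first and last base. Cluster edges follow the pipeline's fixed windows, so equal edges mean that the same windows passed. Its replicates were compared as follows. The edit fraction of this locus was 0.878%, 0.871% and 0.846%, from 45 of 5124, 54 of 6199 and 39 of 4611 covered C bases, which makes 0.865% ± 0.0170 (SD, n = 3). The most 3′ locus, from 38203125 to 38203349, was edited at 1.59%, 1.46% and 1.96%, and the locus from 38202690 to 38202794 at 0.466%, 0.623% and 0.498%. These 3 loci therefore kept the same order in each replicate, and their ranges do not overlap. The most 3′ locus was also the shallowest of them, with mean read depths of 57.1, 44.5 and 41.8, against 179, 216 and 161 in the middle locus. The first locus, from 38202135 to 38202404, was also in all replicates and gave 0.833%, 1.27% and 0.896%. It was below the middle locus in replicate 1 and above it in replicates 2 and 3, so its place in the order changed.

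**Figure D2:**
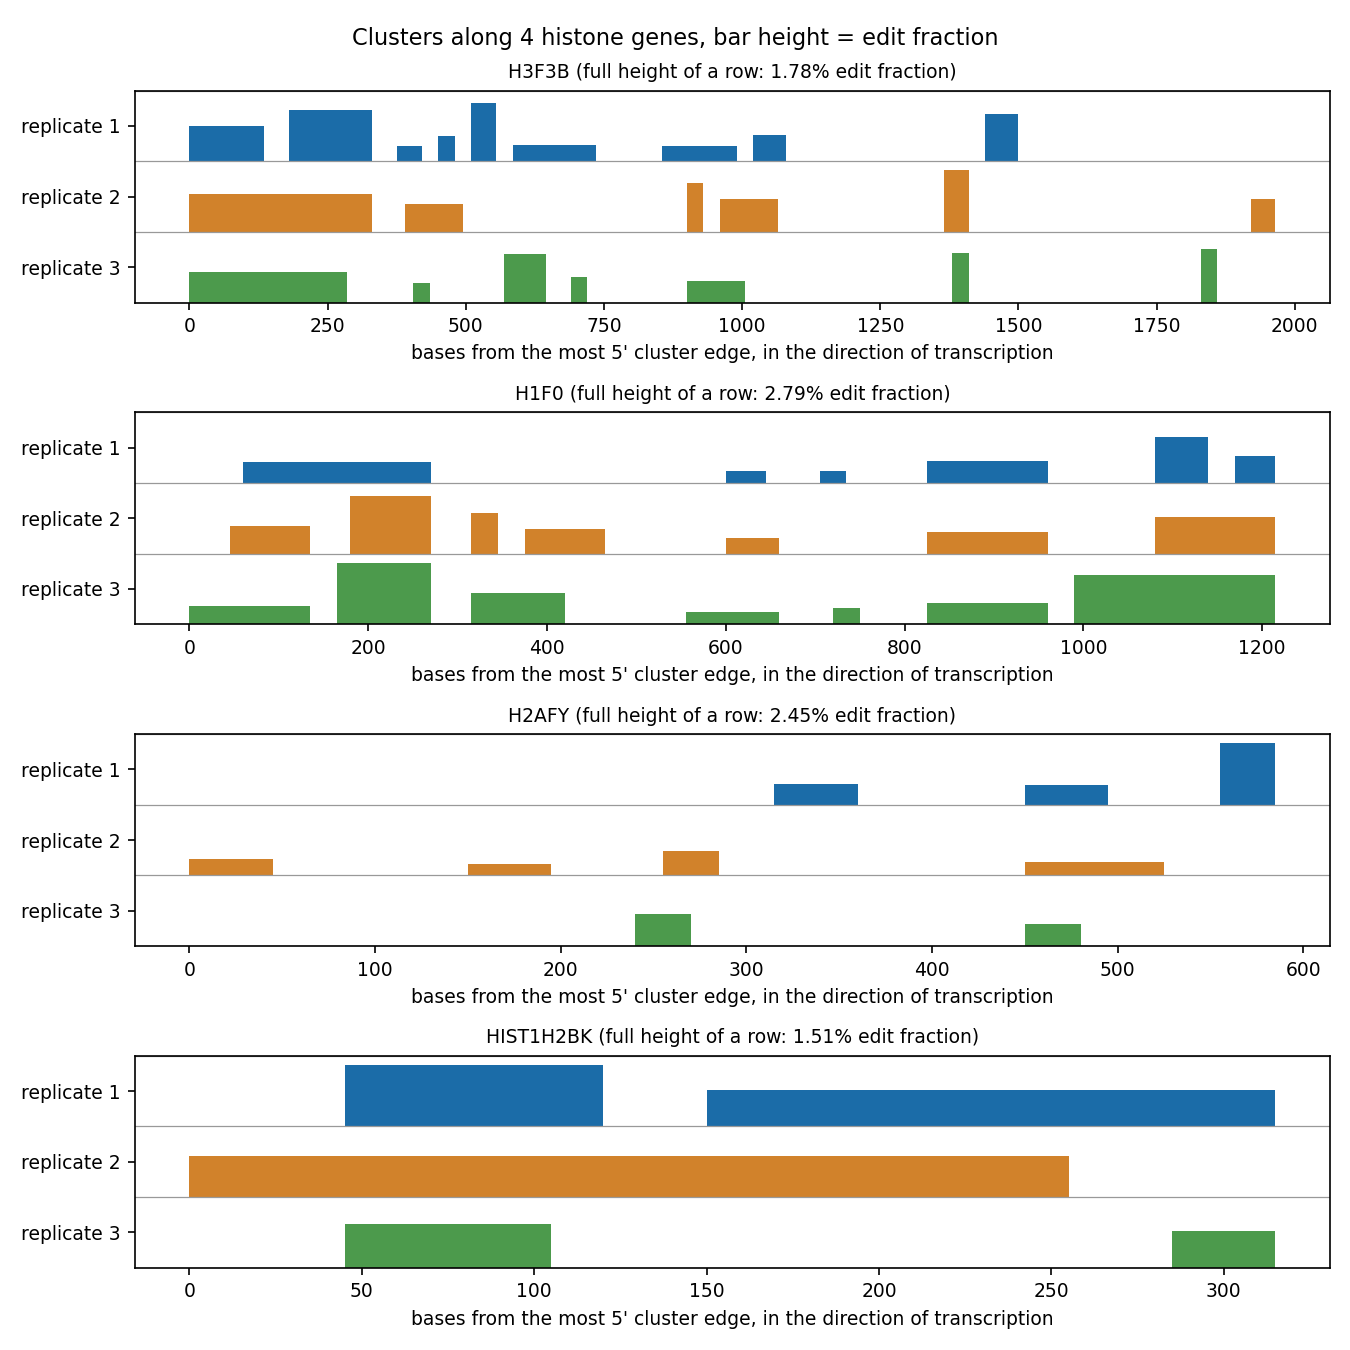
Clusters along H3F3B, H1F0, H2AFY and HIST1H2BK in the 3 replicates, placed by distance in bases from the most 5′ cluster edge of the gene. Bar width is cluster length and bar height the edit fraction, on a scale given above each panel. Each gene has stretches that recur in all 3 replicates, such as the H1F0 cluster of 135 bases with identical edges, and H2AFY has clusters that appear in 1 replicate. Edges follow the pipeline's fixed windows, so identical edges mean the same windows.

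H2AFZ, which encodes the main H2A.Z protein, had the lowest mean edit fraction of the genes found in all replicates, at 0.460%, 0.397% and 0.537% from 28, 86 and 37 edited bases, although H3F3A was below it in replicate 2. It was also the deepest, since the locus from 100869499 to 100869588 on the minus strand of chromosome 4 had mean read depths of 1051, 1054 and 662. The edit fraction of that locus was 0.318%, 0.352% and 0.430%. The neighbouring locus from 100869334 to 100869423 was edited at 1.48%, 0.855% and 0.930%, more than the deep locus in each replicate. H2AFZ also had 2 clusters with far less C coverage than depth. The cluster from 100870729 to 100870773 in replicate 2 had a mean read depth of 1159 but only 14.9 covered C bases for each C in it, and the cluster from 100870564 to 100870608 in replicate 3 had 768 and 8.33. The ratio of C coverage to depth was 0.0128 and 0.0109 there, against a median of 1.01 over the 100 histone clusters, and no other histone cluster was under 0.1. Over all clusters 1.25% were under 0.1. Both rest on 2 edited bases, and the cause of the low coverage was not tested.

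H2AFV, which encodes a second H2A.Z protein, had 5, 3 and 2 clusters and a pooled edit fraction of 0.945%, 0.942% and 1.62%. It was above H2AFZ in each replicate. H2AFV was the only member with intronic clusters, 3, 1 and 1 in replicates 1, 2 and 3, of which none recurred. They were shallow, with depths of 4.94 to 18.4, and carried 1 to 6 edited bases. Its exonic locus from 44873903 to 44874067 on the minus strand of chromosome 7 was in all replicates, at 0.660%, 0.847% and 1.46%. Replicate 3 was the highest there, in both the locus and the gene.

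H2AFY, the gene of macroH2A1, a variant with a large globular domain that is enriched on the inactive X chromosome, had 3, 4 and 2 clusters with 24, 33 and 8 edited bases. Its pooled edit fraction was 0.746%, 0.486% and 0.840%. Its clusters formed 6 loci in chromosome 5 (minus strand, 134670176 to 134670760), of which 1 was in all replicates, from 134670236 to 134670310, at 0.668%, 0.450% and 0.777%. H2AFX encodes H2A.X, which is phosphorylated around DNA breaks. It had 1 cluster in replicate 1 and 1 in replicate 2, both beginning at 118964625 on the minus strand of chromosome 11, at 0.720% from 5 edited bases and 0.482% from 9. Replicate 3 had no cluster in H2AFX.

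Among the HIST genes, HIST1H2BK held the largest part of the editing in each replicate. This gene of H2B, now called H2BC12, held 76, 63 and 18 of the 86, 95 and 38 edited bases of the class. Its edit fraction was 0.976%, 0.885% and 0.915%, or 0.925% ± 0.0461 (SD, n = 3), the smallest relative spread of the 8 genes found in all replicates. The clusters formed 1 locus on the minus strand of chromosome 6 from 27106119 to 27106433, with depths from 57.5 to 172. Of its reads, 9.06%, 10.6% and 5.88% were edited.

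HIST2H4B, a gene of H4, had 4 clusters in each replicate but few edited bases, 10, 14 and 17 among 491, 898 and 915 covered C bases. Its pooled edit fraction of 2.04%, 1.56% and 1.86% was the highest of the genes found in all replicates apart from H3F3A in replicates 1 and 3. Depth was low, from 5.39 to 27.9. The deposited labels place its clusters in exons numbered 2 and 4 of the annotated gene, in a stretch of chromosome 1 (minus strand) from 149830975 to 149832341. Of its 7 loci, 2 were in all replicates, and in the locus from 149831682 to 149831771 the clusters are linked only through each other, since no base was common to all 3. HIST2H4A, its near-identical copy on the plus strand, had 1 cluster of 3 edited bases in replicate 2 and another of 1 edited base in replicate 3, at different positions. Reads that fit both copies make the values of either gene uncertain.

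The remaining 5 HIST genes rested on very few reads. HIST1H2AG, a gene of H2A, had the highest edit fraction of any histone cluster, 15% in replicate 2, with 6 of 40 covered C bases edited on 5 of 8 reads and a Wilson interval of 7.06% to 29.1%. HIST1H2AI, also of H2A, had 5.00% from 3 edited bases. HIST1H2BD, of H2B, had 5.41% in replicate 2 and 1.52% in replicate 3 from 2 edited bases each, in separate clusters that together span 12824 bases. HIST1H3E, of H3, and HIST2H2BE, of H2B, had 4.44% and 2.90%, each from 2 edited bases. The depth of these clusters was 4.70 to 13.3.

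Ordered by the mean pooled edit fraction, the genes found in all replicates ran from H2AFZ at 0.465% ± 0.0706 (SD, n = 3) over H2AFY at 0.691% ± 0.184, H3F3B at 0.787% ± 0.118, HIST1H2BK at 0.925% ± 0.0461, H1F0 at 0.933% ± 0.0687, H2AFV at 1.17% ± 0.390 and H3F3A at 1.47% ± 1.01 to HIST2H4B at 1.82% ± 0.241. The ranges over replicates overlapped in each of the 7 neighbouring pairs. Compared within replicates, H2AFY was above H2AFZ in 3 of 3, and in each other pair the order held in 1 or 2. Between the ends the separation was complete, as H2AFZ lay between 0.397% and 0.537% and HIST2H4B between 1.56% and 2.04%. These ends were picked by the same values, and they also differ in depth.

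**Figure D3:**
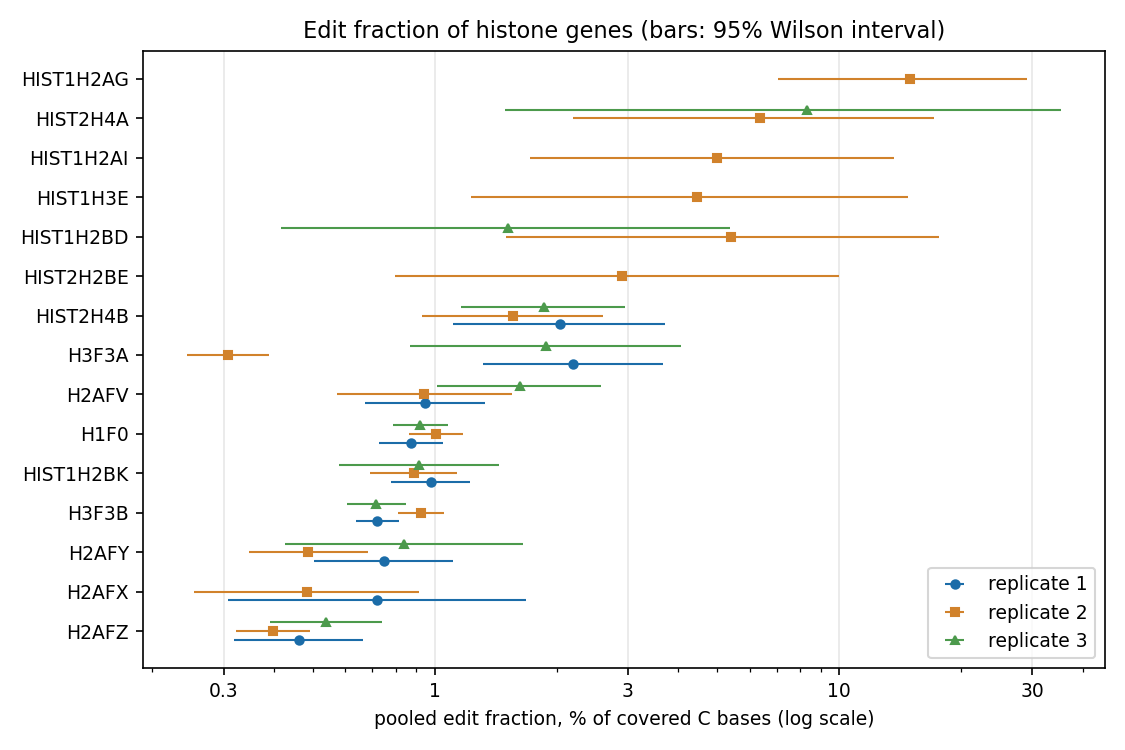
Pooled edit fraction of each histone gene (log axis), with a point for each replicate and its Wilson 95% interval, which covers counting error only. H2AFZ lies between 0.397% and 0.537%, the H3F3A point of replicate 2 at 0.308% is the lowest of all and far below its other replicates, and the HIST genes at the top have wide intervals because they rest on few covered C bases.

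Variant and replication-dependent genes were then compared as classes. The median edit fraction of a cluster was 0.878%, 0.855% and 0.930% in variant genes and 1.74%, 2.90% and 1.41% in HIST genes of replicates 1, 2 and 3. Variant clusters were lower by 0.860, 2.04 and 0.482 percentage points, so that variant minus HIST was -1.13 ± 0.814 (SD, n = 3). The direction was the same in 3 of 3 replicates, with p = 0.25 in a two-sided exact sign-flip permutation test, the smallest p that 3 replicates allow. Read depth moved with it, as the median depth was 106, 156 and 130 in variant clusters and 18.9, 9.65 and 18.8 in HIST clusters, and over all genes shallow clusters had higher edit fractions. Among clusters with a depth of at least 50, of which the HIST genes had 2, 1 and 2, the difference was -0.159 ± 0.144 percentage points. All of these HIST clusters lay in HIST1H2BK, so that value sets the variant class against this gene alone. For pooled edit fractions of the classes, variant minus HIST was -0.283, -0.515 and -0.458 percentage points, or -0.419 ± 0.121 (SD, n = 3). The pooled HIST values rest mainly on HIST1H2BK. It held 7788, 7115 and 1967 of the 8279, 8311 and 3026 covered C bases of HIST clusters in replicates 1, 2 and 3. HIST2H4B alone held 4 of the 6, 11 and 8 HIST clusters of replicates 1, 2 and 3, at depths of 5.39 to 27.9.

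The classes also differed in base composition. C made up 20.5%, 22.8% and 23.6% of the bases of HIST clusters and 17.0%, 18.2% and 17.2% of the bases of variant clusters. HIST clusters were richer in C by 4.85 ± 1.49 percentage points (mean ± SD, n = 3), in 3 of 3 replicates and without overlap of the ranges (p = 0.25, exact sign-flip permutation test, two-sided). H2AFZ was the poorest in C of the genes found in all replicates, with 12.7% ± 4.27, and HIST1H2BK the richest, with 22.9% ± 1.80. Gene by gene the classes overlapped. Over all members, HIST genes ran from 10.0% in HIST2H4A to 33.3% in HIST2H2BE, and variant genes from 12.7% in H2AFZ to 21.7% in H2AFX. HIST1H2BK and HIST2H4B supplied 240 and 180 of the 420 bases of HIST clusters in replicate 1. In replicates 2 and 3 they supplied 255 and 180 of 690, and 90 and 180 of 330. Edited reads carried 1.74, 1.70 and 1.83 edited bases each in variant clusters and 1.56, 1.48 and 1.46 in HIST clusters.

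Compared with the clusters of all other genes, histone clusters recurred more often. A cluster counted as found in all replicates when each of the other replicates had a cluster sharing 1 base or more with it, strand included. This held for 17 of 33, 17 of 36 and 15 of 31 histone clusters, or 51.5%, 47.2% and 48.4%, and for 10.5%, 9.77% and 13.0% of other clusters. Together 49 of 100 histone clusters recurred, where the share over all clusters was 11.0%. The excess was 38.0 ± 2.87 percentage points (mean ± SD, n = 3; p = 0.25, exact two-sided sign-flip permutation test, the smallest possible). Counted as loci merged over replicates, 15 of 51 were in all replicates, against 4.77% of all 33244 loci. The recurring loci were 4 in H1F0, 3 in H3F3B, 2 each in H2AFZ and HIST2H4B, and 1 each in H2AFV, H2AFY, H3F3A and HIST1H2BK. Several of these loci share a transcript and are not independent of each other.

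Depth and length moved with recurrence. Histone clusters had a median depth of 103, 114 and 65.1, against 25.1, 24.6 and 21.0 for other clusters, and a mean length of 72.7, 76.2 and 70.2 bases, against 53.5, 52.9 and 52.6. Within clusters of a depth of at least 50, 61.7% ± 3.67 (SD, n = 3) of histone clusters and 26.5% ± 3.55 of other clusters recurred, and below that depth 26.7% ± 6.67 and 5.39% ± 1.71. Histone clusters were above the others on both sides of this limit in each replicate, but not in each finer depth class. Under a depth of 10 none of 2, 7 and 2 histone clusters of replicates 1, 2 and 3 recurred, against 1.05%, 1.14% and 2.21% of other clusters. Between 50 and 100 it was 3 of 6 histone clusters in replicate 1 but 0 of 2 and 0 of 5 in replicates 2 and 3, against 16.1%, 16.2% and 23.6% of others. From 100 to 200 and from 200 upwards the histone share was the higher in each replicate, with 7 of 8, 7 of 8 and 3 of 4 in the deepest class. Positions were less alike than presence. When the shared bases had to make up 50% or more of each cluster, 10.1% ± 2.45 of histone clusters and 5.29% ± 0.825 of other clusters recurred. The 10 histone clusters that met it were 5 in H1F0, 4 in H2AFZ and 1 in H2AFY. Without H3F3B and H1F0, 40.1% ± 4.91 of histone clusters recurred by the looser rule. The part of length in the difference was not tested.

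**Figure D4:**
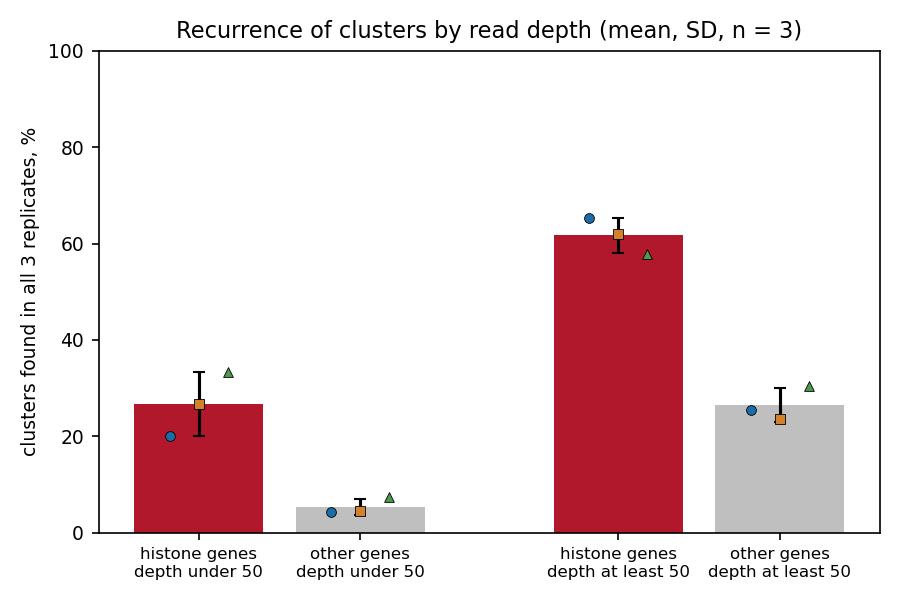
Share of clusters found in all 3 replicates among histone genes (red) and other genes (grey), under and at or above a mean read depth of 50. Bars are means and error bars SD over 3 replicates, and the circle, square and triangle are replicates 1, 2 and 3. Histone genes reach 61.7% against 26.5% in the deeper class and 26.7% against 5.39% in the shallower.

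The level of editing, in contrast, lay near that of other genes of like depth. Pooled over all histone clusters the edit fraction was 0.788%, 0.670% and 0.827% in replicates 1, 2 and 3, with Wilson intervals of 0.726% to 0.856%, 0.622% to 0.722% and 0.750% to 0.912%. Replicate 2 was the lowest, and H3F3A supplied 22742 of its 102582 covered C bases in histone clusters. For all other clusters the pooled value was 0.940%, 0.937% and 0.998%. Since the edit fraction of clusters fell with depth over all genes, each histone cluster was set against the median of other clusters of its replicate in the same of 8 depth classes. On the log2 scale the median difference of histone minus other was 0.11, 0.12 and 0.20, which corresponds to 1.10-fold on average and is positive in 3 of 3 replicates (p = 0.25, exact two-sided sign-flip permutation test). Taken as means, the difference was 0.04 ± 0.04 and with classes by covered C bases 0.08 ± 0.18, and in neither did all replicates have the same sign. Among other measures, 74 of 100 histone clusters had a score of at least 0.99, where the share over all clusters was 60.6%. Clusters with 1 edited read made up 9.09%, 13.9% and 16.1% of histone clusters and 28.0%, 31.1% and 33.1% of other clusters.

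**Figure D5:**
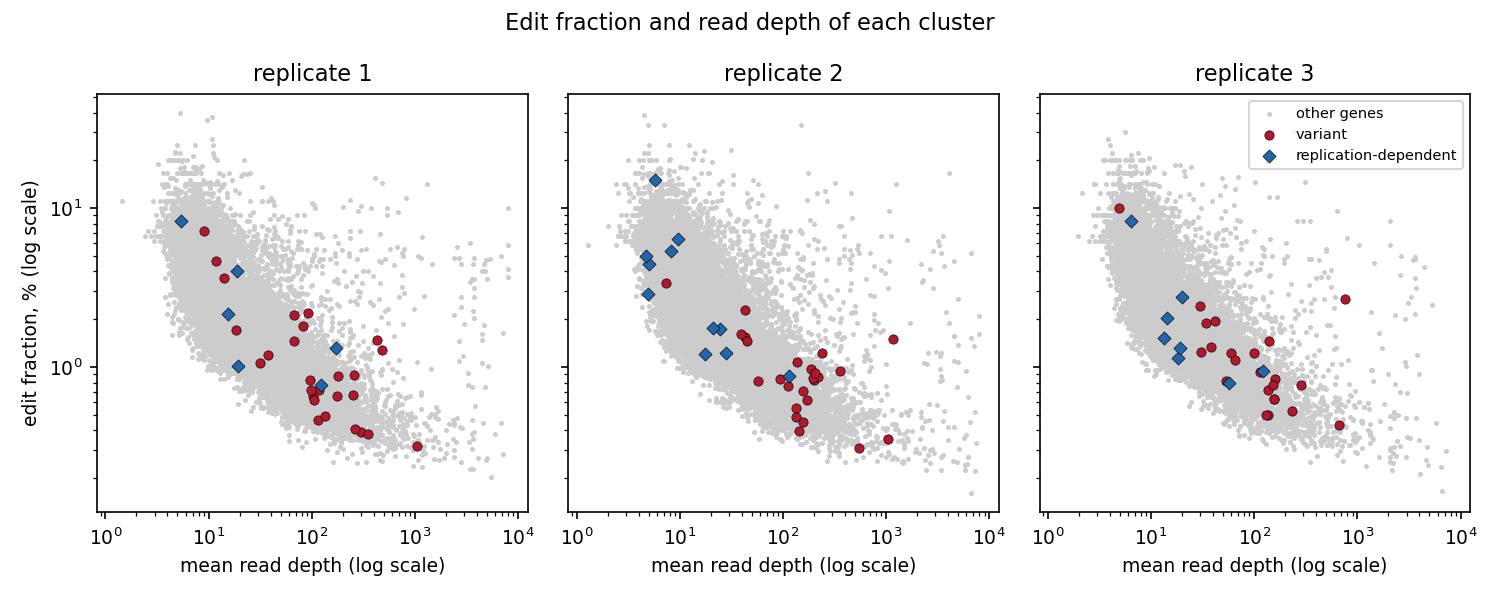
Edit fraction against mean read depth of each cluster (both axes log) in the 3 replicates, with variant histone genes as red circles, HIST genes as blue diamonds and other genes in grey. Variant clusters sit mostly at depths above 50 and HIST clusters mostly below, and both follow the grey band in which the edit fraction falls with depth. The 2 H2AFZ clusters with little C coverage for their depth lie above the band near depths of 768 and 1159.

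The proteins that make, load and remove histones were looked up in a list of 40 genes. Of these, 37 had a cluster in any replicate and 25 in each of the 3, or 67.6% of those with a cluster, beside 38.3% over all gene names. A gene counted here without its clusters having to overlap between replicates. In the group for transcription, processing and decay of histone mRNA, 10 of 17 genes had a cluster in each replicate, and 15 had any. Only CPSF3 had clusters that overlapped in all replicates. SLBP, which binds the stem-loop, held 16, 6 and 7 edited bases, and NPAT, the activator of replication-dependent histone genes, held 11, 12 and 2. LSM10, a subunit of the U7 snRNP that cuts these mRNAs, and SYMPK, a scaffold of the cleavage complex, had no cluster. In the group of histone chaperones and importers, 15 of 23 genes had a cluster in each replicate, and 22 had any. Clusters that overlapped in all replicates were in ASF1B, CHAF1B, RBBP4, RBBP7, NAP1L1, NAP1L4, MCM2, NPM1 and IPO4. NPM1, a nucleolar chaperone, held 387, 319 and 262 edited bases, more than H3F3B in each replicate, and NAP1L1, a chaperone of H2A and H2B, held 79, 80 and 64. HIRA, which deposits H3.3, was the 1 gene of this group without a cluster of its own. The share of all genes with any cluster, and of those with clusters overlapping in all replicates, was not taken. These 2 kinds of count therefore cannot be called high or low. The list mixes genes of unequal depth, and its share is a description.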

How the data were processed

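RNA sequencing of 3 replicates of HEK293T cells with RBFOX2-APOBEC1 was analysed from the clusters the authors deposited for each replicate. The submitters' processing notes name STAR and hg19, without versions. Per the paper's methods, SAILOR called edited positions and removed common SNPs, and FLARE tested windows of 30 bases at an adjusted p of 0.1 and merged those within 15 bases. Per the labels and file headers, the authors deposited unscaled counts for each cluster, namely of its reads, its edited reads, its C bases, the coverage summed over them and the edited bases among these. They also deposited fractions (recomputed from the counts in all 40843 clusters within 1e-09), mean depth as a coverage signal, and a score between 0 and 1. Start positions were made 1-based.

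Members and lists were chosen with earlier results of these data known. Every gene with clusters in all replicates was described with its values, and the others by counts. Among those in fewer replicates, the 5 with most edited reads were given values, and the remaining ones received theirs after their values were seen. All 15 names matched a present or older symbol in RefSeq (GRCh38.p14), which was used for names and family size alone. Replicate 1, 2 and 3 values were compared by exact two-sided sign-flip permutation tests, whose smallest p is 0.25. That value is reached whenever all 3 replicates have the same sign, whatever the spread between these samples, which may be technical. Depth classes had limits at 10, 20, 30, 40, 50, 100 and 200. Alternatives were minimum scores of 0.95 and 0.99, a depth of 50, 2 edited reads, an overlap of 50%, means, deciles of covered C bases, H2AFX moved between classes, clusters listed under several genes left out, and each replicate left out. Leaving out H3F3A, or H3F3B and H1F0, was added after the data were seen. Computations ran in Python 3.11.15 with SciPy 1.17.1, matplotlib 3.10.9, pandas 2.3.3 and NumPy 2.4.6. The overlap search was checked against a direct comparison of pairs, on sampled clusters of replicate 1 and those of replicate 2. The matched difference was checked by putting known shifts into randomly picked clusters of these data.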

Additional observations from a re-analysis of the deposited data

Results flagged for a closer look

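Clusters in processed copies of H3F3A, which entered none of the comparisons, also carried edited reads, with no control samples to set them against. Those named for H3F3AP4 held 133, 123 and 77 edited reads in replicates 1, 2 and 3, with pooled edit fractions of 0.901%, 1.26% and 1.29% and 2, 3 and 2 clusters found in all replicates. H3F3A itself held 10, 44 and 6 edited reads. A cluster named for H3F3AP6 in replicate 1 held 1 edited read. Whether these reads come from the copies or from H3F3A was not tested.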

How the results depend on the processing

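Of 66 alternative values of 7 results, 21 left out a replicate. None of the differences among them changed sign, and the counts, shares and fractions cannot do so. The tests cannot pass 0.05 with 3 replicates either, so the unchanged signs say little on stability. The number of histone clusters per replicate moved from 33.3 to 21.0 at a depth of at least 50. The share found in all replicates moved from 49.0% to 57.2% at a depth of at least 50, to 55.3% with at least 2 edited reads, to 10.1% with an overlap of 50% and to 40.1% without H3F3B and H1F0. With a replicate left out, 58.2% to 62.8% were found in both remaining, since fewer replicates are required. The share of edited bases in histone clusters moved from 0.562% to 0.622% at a score of at least 0.99, to 0.827% at a depth of at least 50 and to 0.629% with 2 edited reads. These filters remove clusters of all genes, and the cause of the moves was not tested. The pooled edit fraction, 0.762%, ranged from 0.729% to 0.808% with a replicate left out, and was 0.789% without H3F3A, where the SD over replicates fell from 0.0819 to 0.0264. No histone cluster was listed under several genes, so leaving such clusters out changed nothing. The median edit fraction of variant minus HIST clusters ranged from -1.45 to -0.671 percentage points with a replicate left out, was -1.83 with means and -0.791 with H2AFX among the HIST genes. The log2 difference from other clusters of like depth, 0.14, was 0.20 ± 0.33 without H3F3B and H1F0, with replicates of either sign. All differences were taken within replicates and are paired in that sense, and with 1 group no replicate block between groups applies. Depth limits the HIST genes most, where 20 of 25 clusters had a depth under 50.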
